A study of Drosophila mojavensis with 14 samples.

Results

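The transcripts described here are 100 of the 14519 measured in the lower reproductive tract of Drosophila mojavensis females, chosen by their measured levels: their mean on the 2 virgin arrays lay above the mated groups in both matings. The values used were log2 probe intensities, quantile normalized over the 14 arrays and averaged per transcript. In each mating the mean of every state (virgin, 15 min, 2 h and 6 h) was set against the mean of the other 3. Of 14471 transcripts named by a GI number, 928 had virgin as the state with the largest absolute difference, and a positive one, in both matings. The 100 with the highest smaller value of the 2 matings are the members. That value ran from 2.47 down to 0.35 on the log2 scale. GI18326, GI10104 and GI15914 stood just inside at 0.349, 0.348 and 0.348, and GI15579, GI21051 and GI13695 just outside at 0.347, 0.347 and 0.345, so the list has no natural edge.

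The females came from 1 isofemale line of D. mojavensis (ANZA 402.17). Some had mated with males of 1 D. arizonae isofemale line (heterospecific) and some with D. mojavensis males (conspecific), with dissection 15 min, 2 h or 6 h later, and the rest were virgins. The flies were 10 to 12 days old, mating vials held 1 female and 2 males, and a sample was a pool of 20 to 25 tracts. Each of the 7 groups held 2 samples, given as biological replicates, and each sample was hybridised to its own 1-colour NimbleGen array. Every mated group is set against the same pair of virgin arrays.

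The lower tract of a Drosophila female comprises the uterus, which holds the egg during fertilisation, the sperm-storing spermathecae and seminal receptacle, and accessory glands. Mating delivers sperm and seminal fluid proteins made in the male accessory glands, and the tract is known to respond in secretion, muscle activity and transcript levels while sperm are stored and eggs pass through. D. arizonae is a close relative of D. mojavensis, and the matings ask whether the female response depends on the species of the male. The files name the members by GI number, and the RefSeq gene table used here matched 0 of the 100, so no gene name or role is given to any of them. Marker genes of the tract and of other tissues were not matched either, and the labelled tissue was not checked against them. In pooled tissue, fewer cells of a type and less RNA per cell cannot be told apart.

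Levels below are log2 intensities after background correction, quantile normalization and median polish over the probes of a transcript, and differences are on the same scale. A transcript is called not above background on an array where it lies below that array's limit, which ran from 7.44 to 7.75. On all 14 arrays 56 members were above it, and 3 were above it on none. Over all transcripts, 49.1% were above it on all arrays and 30.9% on none.

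A pair of arrays stood apart for these members. The median member level was 8.93 on heterospecific 6 h replicate 2 and 10.10 on virgin replicate 2. On the other 11 mated arrays it ran from 8.01 to 8.68, and on virgin replicate 1 it was 8.73. The median of all transcripts ran only from 8.06 to 8.28 over the 14 arrays. Members above background numbered 85 on heterospecific 6 h replicate 2 and 94 on virgin replicate 2, against 67 to 74 on the other 12 arrays. Of all transcripts, 60.1% and 55.8% were above it on these arrays, against 55.2% to 61.0% on the others. The choice asked for a high virgin mean, so high virgin values are part of it. Virgin replicate 2 was also 1 of the 4 arrays with a low raw upper quartile of probe intensity (943 to 1413, against 2015 to 2912 on the other 10). The 3 dim mated arrays, conspecific 15 min replicate 2, 2 h replicate 1 and 6 h replicate 1, had member medians of 8.39 to 8.68. The other mated arrays without heterospecific 6 h replicate 2 had 8.01 to 8.48. The part that array brightness plays in the members' levels was not tested. Heterospecific 6 h replicate 2 was not a dim array, with an upper quartile of 2664. The arrays also differed in the raw log2 difference between the last and first probe of a transcript. Its median was 0.42 and 0.50 on virgin replicates 1 and 2 and 0.25 to 0.55 on the mated arrays, lowest on heterospecific 6 h replicate 2. The part of that difference was not tested either.

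On the scale of the choice, all 100 members had a virgin mean above each of the 6 mated group means, and 96 did after background correction and median polish (14.0% of all transcripts did). The 2 virgin arrays contributed unequally. Each taken regardless of the other, virgin replicate 2 lay above all 6 mated group means for 94 members (26.6% of all transcripts) and virgin replicate 1 for 49 (12.6%). Both did so for 45 members (3.75%). Since the choice used this contrast, these counts describe the list and test nothing.

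**Figure D1:**
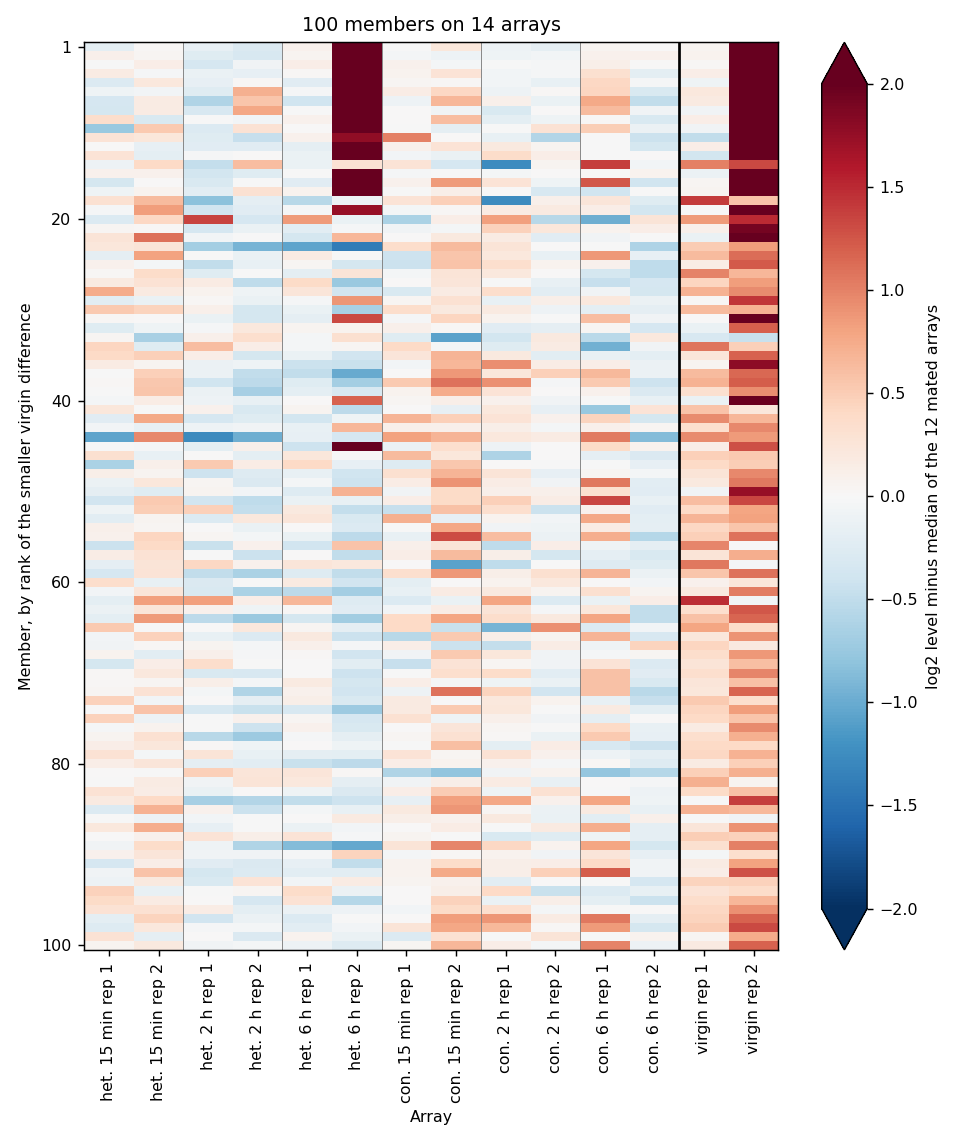
Each row is 1 of the 100 members, ordered by the smaller of its virgin differences in the 2 matings, and each column is 1 array, with the heterospecific groups (het.) first, the conspecific groups (con.) next and the virgin arrays right of the black line. Colour gives the log2 level minus the median of the 12 mated arrays, limited to 2 in either direction. Nearly all of the top rows are dark red on heterospecific 6 h replicate 2 and virgin replicate 2 and pale on virgin replicate 1.

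The leading members were high on 1 virgin array and 1 mated array and near the background limit on the other 12. GI16761, first of the list, had 6.87 and 7.08 (15 min), 6.89 and 6.77 (2 h) and 7.15 and 12.80 (6 h) after heterospecific mating. After conspecific mating it had 7.05 and 7.29 (15 min), 6.96 and 6.87 (2 h) and 7.12 and 7.07 (6 h). Virgin replicates 1 and 2 had 7.11 and 14.11. The groups therefore overlapped: virgin replicate 1 was no higher than several mated arrays and not above background, and the mated array heterospecific 6 h replicate 2 was the second highest of all. No conspecific array was above background. The virgin mean lay 8.07-fold above the background limit there, but it averages replicate 2 with a replicate 1 that was not above background. The excess therefore rests on replicate 2 alone.

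GI16762, GI16642, GI16637 and GI16643 filled the next places with the same profile. They had 12.72, 12.71, 13.20 and 12.97 on heterospecific 6 h replicate 2 and 13.95, 13.92, 14.39 and 14.16 on virgin replicate 2. On virgin replicate 1 they had 7.05, 6.92, 7.41 and 7.07, not above background. GI18414 and GI18413, with neighbouring numbers, had 11.57 and 12.03 on heterospecific 6 h replicate 2. On virgin replicate 2 they had 12.40 and 12.76, against 6.98 and 7.17 on virgin replicate 1. GI12958 and GI21244 were alike, with 11.95 and 10.46 on the mated array and 12.57 and 11.63 on virgin replicate 2.

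GI16678 and GI19567 showed the 2 high arrays on top of a level that was measurable everywhere. GI16678 had 12.57 on heterospecific 6 h replicate 2 and 8.22 to 9.58 on the other mated arrays, against 9.01 and 13.37 on virgin replicates 1 and 2. GI19567 had 11.16 on heterospecific 6 h replicate 2, and its mated median was 9.39, against 8.89 and 13.23 in virgins. For GI19567, then, virgin replicate 1 lay below the median mated array. GI12385, GI21978 and GI20856 were the lowest of this kind among the first 15, with 10.97, 10.21 and 10.30 on virgin replicate 2. GI16649 was the only 1 of the first 15 without it: it had 9.46 on conspecific 6 h replicate 1, its highest mated array, against 9.08 and 9.39 in virgins.

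**Figure D2:**
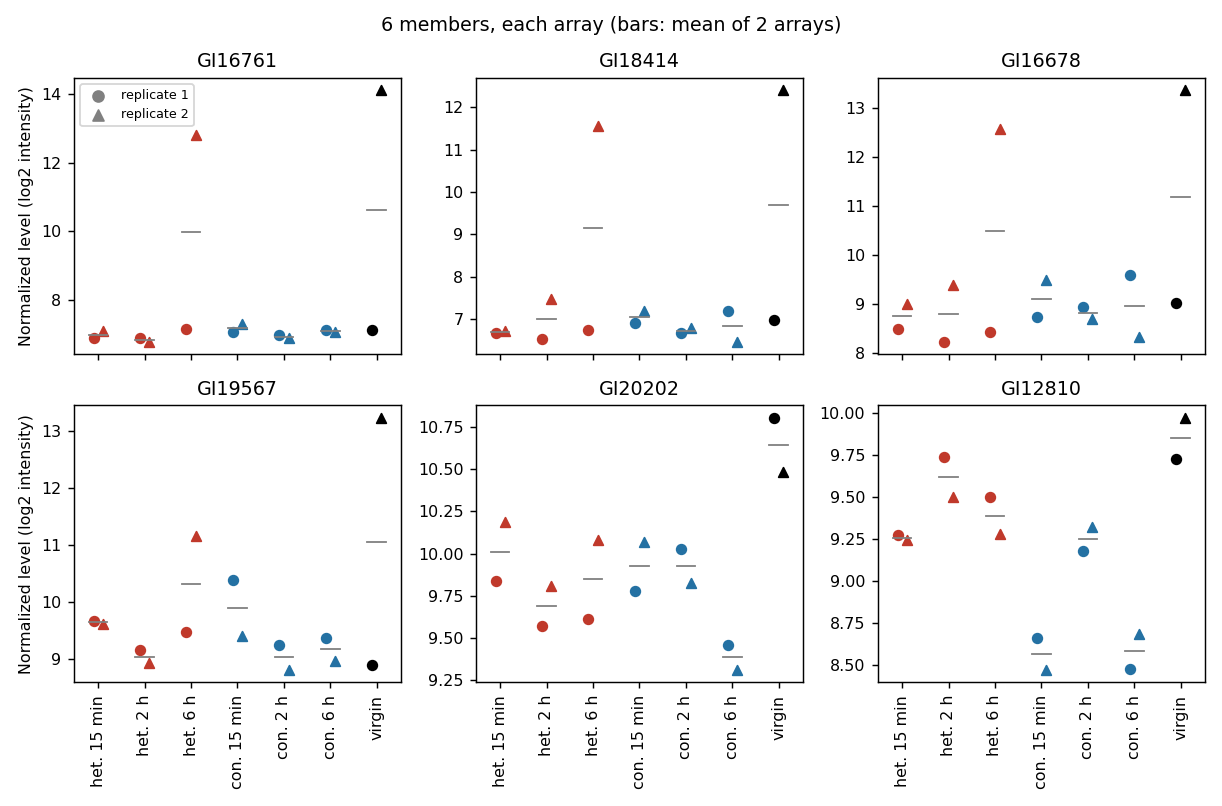
Levels (log2 intensity) of 6 members on each of the 14 arrays, with circles for replicate 1, triangles for replicate 2 and grey bars for the mean of 2 arrays; red is heterospecific, blue conspecific and black virgin, and each panel has its own axis. GI16761, GI18414, GI16678 and GI19567 are highest on virgin replicate 2 and next on heterospecific 6 h replicate 2, while GI20202 and GI12810 have both virgin arrays above all mated arrays or close to the highest.

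Among the members, large replicate gaps fell mostly in 2 of the 7 groups. Virgin replicate 2 lay above replicate 1 by over 2 log2 units for 20 members, and for 49 of all 14519 transcripts. Heterospecific 6 h replicate 2 lay above its replicate 1 by over 2 for 16 members, and for 24 of all transcripts. Both gaps were present in 15 members and 21 transcripts in all, while the opposite pair of gaps was present in 0. In the other 5 groups the replicates lay over 2 apart for 1 member, at heterospecific 15 min, and for 1 to 29 of all transcripts per group. Over all transcripts, the 24 at heterospecific 6 h lay inside that range, and the 49 in virgins lay above it. The virgin and heterospecific 6 h gaps belong to different groups and share no array, but the values were normalized together.

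Most members had no such pair of gaps. Outside the 15, the median gap was 0.46 between the virgin replicates and -0.20 between the heterospecific 6 h replicates. Of the 418 probes of those 85 members, 153 were higher on heterospecific 6 h replicate 2 than on replicate 1 and 301 on virgin replicate 2 than on replicate 1. The Pearson correlation of the gaps was 0.93 across the 100 members, 0.51 across the 85 and 0.17 across all 14519 transcripts, which share the same 4 arrays, and the members were chosen on the virgin values.

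In the 15 members with both gaps, nearly every probe showed them. All 75 probes of the 15 members were higher on replicate 2 in both groups, and 74 of the 75 by over 1 log2 unit in each. Those probes lay between columns 7 and 331 of 331 and rows 12 and 455 of 459 on the array, and their spread over it was not tested. For GI16761 the raw intensity of its 5 probes ran from 6481 to 16186 on virgin replicate 2 and from 166 to 521 on virgin replicate 1. In 3 other members, picked out after their values were seen, a virgin gap of over 1 log2 unit lay in a single probe. In GI14729, GI18502 and GI16641, 1 of 5 probes was higher on virgin replicate 2 than on replicate 1 by over 1, at 8.29, 5.06 and 3.09. After median polish, which gives a single probe little weight, none of the 3 was above background on a virgin array. GI14729 was above it on 7 mated arrays, and GI18502 and GI16641 on 0 of the 14 arrays.

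The 6 transcripts with both gaps that are not members were GI16677, GI11125, GI11124, GI19308, GI20897 and GI19278, named after their values were seen. GI16677 had 12.83 on heterospecific 6 h replicate 2 and 12.64 on virgin replicate 2, and GI19308 had 12.05 and 11.02. Each of the 6 was thus high on the same 2 arrays as the leading members, without meeting the criteria of the choice.

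**Figure D3:**
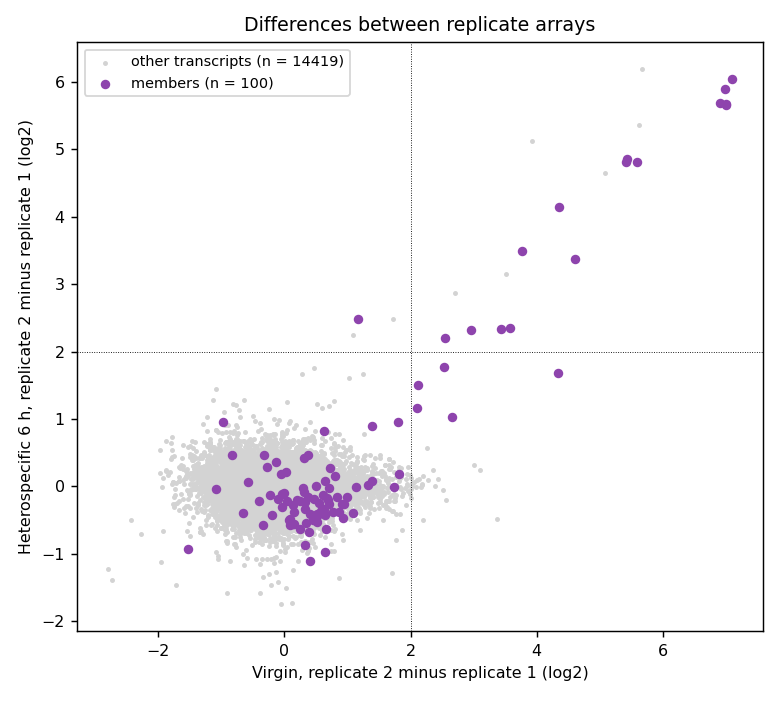
Each point is 1 transcript, with the virgin difference (replicate 2 minus replicate 1, log2) on the x axis and the heterospecific 6 h difference (replicate 2 minus replicate 1, log2) on the y axis; members are purple, the other transcripts grey, and dotted lines mark 2. The 15 members past both lines rise along a diagonal, while the bulk of all transcripts sits around 0.

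Several of these members carry close GI numbers. Of the 121 transcripts on the array numbered from GI16637 to GI16762, 9 were members, and 7 of those had both gaps over 2. The range was chosen after the members were known. GI16641, also in it, had 6.59 and 6.97 in virgins, not above background, and GI16649 is described above, so not all members of that range shared the profile. In the whole list 13 members had a number next to another member's. Such a count was not made for other lists of this size. How the numbers were assigned is not given in the sources used here, and no position in the genome is inferred from them.

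Only 8 members had both virgin arrays above all 12 mated arrays, against 0.592% of all transcripts. They were GI20202, GI13152, GI23766, GI23013, GI11598, GI15570, GI10532 and GI21606. GI20202 had, after heterospecific mating, 9.84 and 10.19 (15 min), 9.57 and 9.81 (2 h) and 9.62 and 10.08 (6 h). After conspecific mating it had 9.78 and 10.07, 10.03 and 9.83, and 9.46 and 9.31 at these times, and virgins had 10.80 and 10.48. The groups did not overlap, and the lower virgin array stood 0.29 above the highest mated one, the widest gap of the 8. The narrowest was 0.04, for GI21606.

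The mated minus virgin difference, averaged over the 6 mated groups, ran from -0.85 for GI20202 to -0.48 for GI15570 in 6 of them. The other two, GI11598 and GI10532, were near the background limit in mated tracts, so no such difference is given. GI10532 was above background on 3 of 6 heterospecific and 0 of 6 conspecific arrays, and was at least 1.27-fold lower after conspecific mating than in virgins. GI15570 had a mated mean of 10.10 and a virgin mean of 10.58, with virgin arrays at 10.60 and 10.56. GI10532 was likewise even, at 7.93 and 7.95 in virgins. These changes were thus much smaller than those at the head of the list, but they were shared by both virgin arrays.

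In most members only 1 virgin array stood above all mated arrays. For 65 members only virgin replicate 2 lay above all 12 mated arrays (11.2% of all transcripts), for 9 only virgin replicate 1 (3.33%), and for 18 neither (84.9%). Without heterospecific 6 h replicate 2 the counts were 66, 9 and 16 (11.4%, 3.6% and 84.4% of all transcripts). Both virgin arrays then lay above the 11 mated arrays for 9 members (0.634%). In the group of 65 the median excess over the median mated array was 1.17 on virgin replicate 2 and 0.19 on virgin replicate 1. In the group of 9 it was 0.23 on replicate 2 and 0.98 on replicate 1.

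The 9 were GI18673, GI20230, GI19181, GI21471, GI15357, GI13721, GI24081, GI22240 and GI23023. GI18673 ranged from 6.60 to 8.49 on the mated arrays, with a median of 7.86, against 9.26 and 8.43 on virgin replicates 1 and 2. GI13721 ranged from 8.98 to 10.47, against 11.10 and 10.02. In both, virgin replicate 2 lay inside the mated range. Among the 18 with neither array on top, GI11669 ranged from 11.42 to 13.75 in mated tracts, against 13.64 and 13.54 in virgins. Its replicates could lie far apart, with 11.65 and 13.67 at heterospecific 15 min.

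Over all members, virgin replicate 2 exceeded the median mated array by 0.95 (median, quartiles 0.59 and 1.39, highest 7.11). Virgin replicate 1 exceeded it by 0.32 (quartiles 0.09 and 0.51, highest 1.47). Over all transcripts both medians were near 0, at -0.01 and 0.00. The mean SD within mated groups had a median of 0.30 over the members, against 0.18 over all transcripts, and the SD of the 2 virgin arrays had medians of 0.46 and 0.20. The members thus varied more than most transcripts in mated tracts too.

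**Figure D4:**
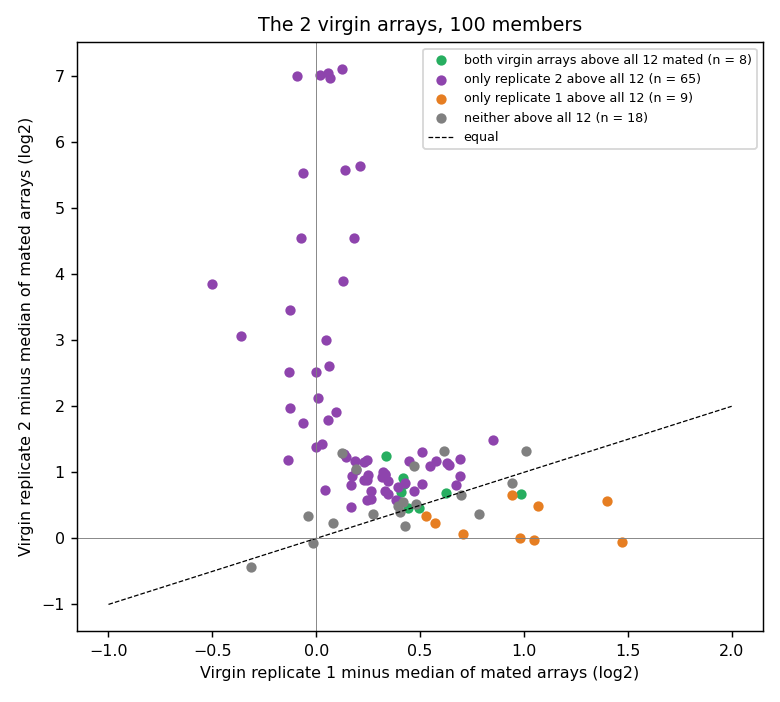
For each of the 100 members, the level on virgin replicate 1 (x axis) and on virgin replicate 2 (y axis), each minus the median of the 12 mated arrays (log2); colours give which virgin arrays lay above all 12 mated arrays, and the dashed line marks equal values. The column of points near 0 on the x axis and up to 7.11 on the y axis is the set high on virgin replicate 2 alone, and the 8 green points lie close to the line.

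By time, the median member difference was -0.54 at 15 min, -0.83 at 2 h and -0.67 at 6 h for heterospecific minus virgin. For conspecific minus virgin it was -0.46, -0.61 and -0.69. The median over all transcripts ran from -0.01 to 0.01. With virgin replicate 1 as the only virgin array, the heterospecific medians were -0.20, -0.42 and -0.44 and the conspecific ones -0.07, -0.25 and -0.26. With virgin replicate 2 as the only one they were -0.86, -1.18 and -1.11, and -0.71, -0.84 and -0.87. Without heterospecific 6 h replicate 2 the heterospecific 6 h median was -0.78. Over the 3 times the medians were -0.75 for heterospecific and -0.55 for conspecific minus virgin. The images of most heterospecific arrays were read on another day than those of both virgin arrays. With that day as a block these medians were -0.51 and -0.53. Without the 4 dim arrays, which leaves virgin replicate 1 alone, they were -0.35 and -0.36. Averaged over the 6 mated groups the median was -0.65, and 98 members were below 0 (48.9% of all transcripts). Without virgin replicate 2 the median was -0.30, with 70 members below 0 (50.5%). It was -0.29, with 81 below 0 (50.4%), when heterospecific 6 h replicate 2 was left out as well.

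The list itself depended on the virgin arrays. With the same choice repeated without virgin replicate 2, 20 of the 100 were picked again, and 35 without virgin replicate 1. The first 15 were all picked again without replicate 1, and 0 of them without replicate 2. GI18652, with 7.16 to 9.49 on mated arrays and 9.00 and 9.64 in virgins, was the only member picked in both cases, and 46 were picked in neither. Leaving out any 1 of the 12 mated arrays kept 65 to 95.

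**Figure D5:**
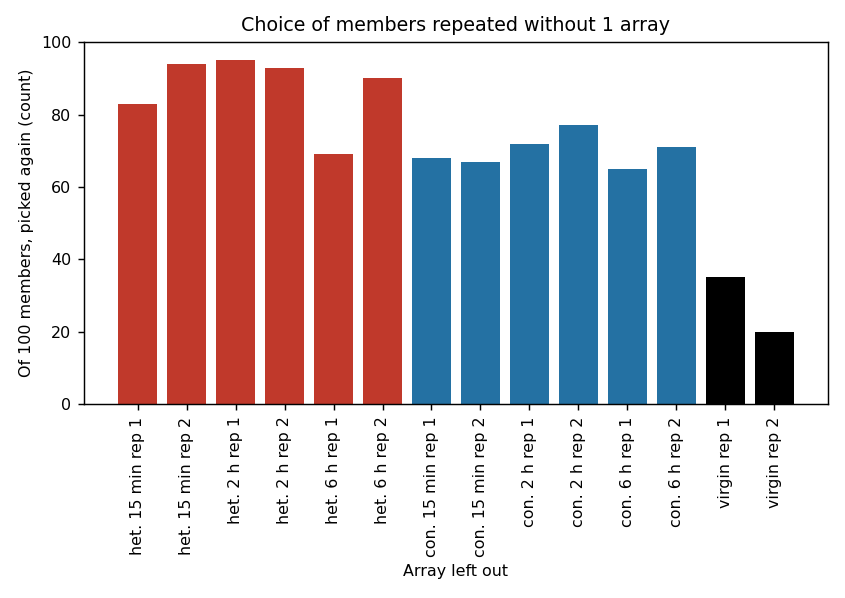
Bars give how many of the 100 members were picked again when the choice was repeated without the array named on the x axis (red heterospecific, blue conspecific, black virgin). The mated arrays gave 65 to 95, virgin replicate 1 gave 35 and virgin replicate 2 gave 20.

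The difference between the matings was not used in the choice, although taking the smaller of the 2 virgin differences favours members that are alike in both. In limma's fit over all transcripts (adjusted p, Benjamini-Hochberg, threshold 0.05), 1 member was called in the average over the 3 times, GI12810, which was higher after heterospecific than after conspecific mating. Called higher were 0.103% of all transcripts, and called in either direction 0.186%. At 15 min, 2 h and 6 h 0 members were called (0.0551%, 0.0207% and 0.00689% of all transcripts). At an unadjusted limma p under 0.05, 1, 7 and 6 members differed at these times (3.29%, 7.82% and 9.84% of all transcripts). Over the 3 times 3 were higher (10.3% of all transcripts) and 13 lower (9.46%), 16 in all (19.8%). The median member difference was -0.03 over the 3 times, and -0.07 without heterospecific 6 h replicate 2. Without the 4 dim arrays, of which 3 were conspecific, its sign turned to 0.07 over the 3 times. Members below 0 then numbered 43 (49.3% of all transcripts), against 53 on all arrays (50.7%). By time the median difference was -0.06, -0.13 and 0.00 on all arrays and 0.04, -0.07 and 0.15 without the dim ones. Counted in either direction, the members' shares at the unadjusted threshold were thus no higher than over all transcripts at any time or over the 3. The share of lower members over the 3 times was above that of all transcripts and the share of higher ones below it.

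GI12810 had 9.27 and 9.24 (15 min), 9.74 and 9.50 (2 h) and 9.50 and 9.28 (6 h) after heterospecific mating. After conspecific mating it had 8.66 and 8.47, 9.18 and 9.32, and 8.48 and 8.69, and virgins had 9.73 and 9.97. At each time both heterospecific arrays lay above both conspecific ones, and both virgin arrays lay near or above the highest mated array. The heterospecific minus conspecific difference was 0.62 over the 3 times (SE 0.10, limma adjusted p = 0.0371). By time it was 0.69 at 15 min, 0.37 at 2 h and 0.81 at 6 h, with adjusted p-values of 0.828, 0.637 and 0.502.

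The call of GI12810 rested on most of the arrays. It was lost without any 1 of the 12 mated arrays, with adjusted p-values of 0.05 to 0.192, while the difference stayed between 0.58 and 0.66. The images of 5 of the 6 heterospecific arrays were read on 1 day and those of 5 of the 6 conspecific arrays and both virgin arrays on another. With that day as a block the difference was 0.54 (adjusted p = 0.474). On the second day, heterospecific 15 min replicate 2 had 9.24, against 8.66 and 8.47 on the conspecific arrays of that time. On the first day, the heterospecific 6 h arrays had 9.50 and 9.28, against 8.69 on the conspecific array of that time.

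In the other direction, GI15767, GI14818 and GI22301 had both heterospecific arrays below both conspecific arrays at all 3 times (2.97% of all transcripts did), and GI12810 was the only member above at all 3 (2.66%). GI15767 had 11.53 and 11.57 (15 min), 10.63 and 10.38 (2 h) and 10.25 and 9.91 (6 h) after heterospecific mating. After conspecific mating it had 11.65 and 11.94, 11.57 and 11.32, and 11.29 and 10.69, and virgins had 11.82 and 12.14. Its level was thus lower at each later time in both matings. The heterospecific minus conspecific difference over the 3 times was -0.70 (SE 0.13, limma adjusted p = 0.114), which does not pass the threshold. At each time 1 of the 2 conspecific arrays was dim, and for GI15767 it was the higher of the pair. Most heterospecific arrays were also read on another day than most conspecific ones. The part of brightness and day in the differences of GI15767, GI14818 and GI22301 was not tested.

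Changes between the times were part of the choice and are given as values only. Over both matings the 6 h minus 15 min difference of the members had a median of -0.13 and ran from -1.14 to 1.49, against a median of -0.01 over all transcripts. The 4 lowest were GI15767, at -1.14, and GI14934, GI15118 and GI23766, at -0.75, -0.75 and -0.67. GI23766 had 10.93 and 10.42 after heterospecific and 10.87 and 10.88 after conspecific mating at 6 h. At 15 min it had 11.59 and 11.51, and 11.42 and 11.26. The 4 highest, GI16762, GI16643, GI16642 and GI16761, owed their values to heterospecific 6 h replicate 2.

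The mean level of the members ran from 6.70 to 13.43, against 6.16 to 15.92 over all transcripts, so the brightest transcripts were not among them. It had a median of 8.29 (quartiles 7.67 and 10.03), against 8.20 over all transcripts (7.02 and 10.83). GI14818, GI11669, GI10275, GI15185 and GI19181 had the highest virgin means. GI14818 ranged from 12.93 to 14.03 in mated tracts, against 13.60 and 14.30 in virgins. GI15185 was uneven in mated tracts, with 11.67 and 13.52 on the replicates of conspecific 2 h, against 13.39 and 12.98 in virgins. Even among the brightest members the virgin arrays thus lay partly inside the mated range.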

How the data were processed

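Tracts of 7 groups with 2 samples each were profiled on 1-colour arrays. The deposited files hold 1 perfect-match intensity per probe (71998 probes), and the file headers give NimbleScan 2.4.67 as the extraction software. RMA is listed in the submitters' processing notes. The deposited value table was nevertheless identical to the raw intensity, with 0 probes differing.

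Intensities were corrected with limma's normexp (offset 50), put on the log2 scale, quantile normalized and summarised by median polish (R 4.3.3, limma 3.58.1). The offset understates changes of dim transcripts. The members were chosen on uncorrected intensities averaged over probes. The background limit of an array lies 2 SDs above the mode of its transcript values, with the SD taken from values below that mode. It was set after the data were seen. No transcript was filtered out.

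Groups were compared with limma's lmFit and eBayes, with 1 mean per group over 14 arrays, 2-sided, and Benjamini-Hochberg adjustment over all 14519 transcripts. The fit was tested on simulated data, for heterospecific against conspecific over the 3 times. Of changes of 1 log2 unit 83.6% were recovered, and of changes of 2 and 3 units 98.5%, with 10 false calls. No smaller change was simulated, so the test does not cover a difference as small as that of GI12810. The number of arrays limits the precision: the median SE over the members was 0.35 at a single time and 0.20 over the 3 times. Replicates correlated at 0.972 (virgin) to 0.995.

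Named members were the first 15, members called between the matings, the 3 on either side of the limit, the 4 with the largest rise and fall between 15 min and 6 h, the 5 brightest in virgins and those called in the earlier fits. Others were named after their values were seen. The members and lists were chosen with earlier results of these data known. Product classes, tissue markers and promoter motifs were planned, but 0 members matched a name, so none was used and no sequence is shown.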

Additional observations from a re-analysis of the deposited data

Results flagged for a closer look

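GI12810 was singled out because the response to the 2 kinds of male differed by a direct test: heterospecific minus conspecific was 0.62 over the 3 times (limma adjusted p = 0.0371), higher at 3 of 3 times. Its adjusted p ranged from 0.0377 to 0.474 over the alternatives. Groups of 2 samples were not tested for single samples that stand apart.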

How the results depend on the processing

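The sign of the median member differences against virgin was set by the choice of members, so only their size is given. Without any 1 array they ran from -0.94 to -0.30 for mated, from -1.05 to -0.35 for heterospecific and from -0.79 to -0.18 for conspecific minus virgin, in each case with the low end without virgin replicate 1 and the high end without virgin replicate 2. Members with both virgin arrays above all mated arrays numbered 3 with median scaling and 16 with the mean of the probes. They numbered 17 on the arrays read on day 2 alone, with fewer mated arrays. Without the 4 dim arrays the count was 35, and without virgin replicate 2 and heterospecific 6 h replicate 2 together 18, in both with virgin replicate 1 alone. Without any 1 array it ran from 8 to 73, with 13 without conspecific 15 min replicate 2. The 73 and 17 found without virgin replicate 1 and 2 count the 1 virgin array left, a looser criterion. The share of all transcripts was 0.592% on all arrays and is not given here for the alternatives, so the counts describe the list only. The choice picked 34 members again with median scaling, 66 with cyclic loess, 61 with normexp and median polish, 22 without the 4 dim arrays, 18 without virgin replicate 2 and heterospecific 6 h replicate 2, and 20 to 95 without any 1 array (65 without conspecific 6 h replicate 1).

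The call of GI12810 over the 3 times, the only member called between matings, was lost (count 0, adjusted p in brackets) with an offset of 0 (0.0778), median scaling (0.21), cyclic loess (0.0509), the day as a block (0.474), eBayes with trend and robust settings (0.123), without the 4 dim arrays (0.135) and without virgin replicate 2 and heterospecific 6 h replicate 2 (0.157). Without any 1 array the count was 0 or 1, the 1 only without a virgin array. The replicate number as a block gave 0 calls (adjusted p = 0.0833). The numbers are not known to pair samples: correlations of replicate differences between groups ran from -0.63 to 0.51, so no weaker effect is read from it. At single times no alternative called a member. Heterospecific arrays at 2 h and 6 h were not among those of day 2, so no such comparison could be made there. The alternative without the 2 replicate 2 arrays and the choice after normexp were added after seeing the data. The causes of these changes were not tested.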
